A study of Mus musculus with 7 samples.

Results

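Microexons are cassette exons so short that they add only a few amino acids to a protein. In mammals many of them are included mainly in neurons, where the splicing factors Srrm4 and Srrm3 promote their inclusion and Ptbp1 represses many neuronal exons. They lie preferentially in genes for synaptic adhesion, vesicle traffic and the cytoskeleton, and most keep the reading frame. The microexons described here were the cassette exons of 3 to 27 bases in the deposited event tables whose gene and coordinates were unique in the table of each replicate number and present in both tables. They numbered 203 in 175 genes, out of 11814 events of all types that met the same condition on coordinates. Replicate number 1 had 257 cassette rows of this length and replicate number 2 had 291. For number 1, 23 rows shared their coordinates with another row and 31 of the unique ones had no partner, and for number 2 these counts were 27 and 61.

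The libraries came from wild-type mouse primary cortical neurons of ICR embryos at day 16, grown for 11 days. The KCl group spent 10 min in buffer containing 50 mM KCl, a depolarizing stimulus, and the control group the same time in a buffer that held NaCl instead. Both groups were harvested 24 h later, with 2 libraries per group, and the labels do not say whether the replicates were separate cultures, so a p-value reflects the spread between libraries alone. The libraries held 3643165 and 4666850 event reads in KCl and 3566066 and 5385345 in control, of which the microexons held 15652 and 20283 in KCl and 14294 and 21788 in control. The comparison asks whether a brief depolarization alters splicing a day later.

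The value used is the inclusion read share, the inclusion reads in percent of all reads of both forms. Effective lengths are not given, so it is not a percent spliced in, and its level depends on exon length as well. Libraries were compared over the same exons. Where shares or differences of exon classes stand side by side below, they are a description, are not on one scale and were not tested against each other. Reads per microexon over the 4 libraries lay between 7 and 12806 with a median of 146, and 96 of the 203 had at least 20 reads in every library. The coverage of many single microexons was therefore thin, and intervals given below are 95% Wilson intervals that cover counting error only. No sequence of these exons was used here.

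The marker genes of cell types were measured by the event with most reads in each gene, in CPM, its reads scaled to the library's total. Neuronal markers were present in every library, but lower in KCl: the summed level of the 6 measured of 11 was 570 and 2233 CPM in KCl and 6931 and 6737 CPM in control. All 6 were lower, with a median log2 fold change of -2.03 (edgeR). At an unadjusted p under 0.05, 3 were lower, where 7.31% of all genes were. Stmn2, which codes for a growth-cone protein binding tubulin, led this sum. The 5 measured of 10 oligodendrocyte markers summed to 1997 and 1094 CPM in KCl and 317 and 341 CPM in control, and the 3 measured of 8 vascular and mesenchymal markers to 2902 and 2240 CPM in KCl and 431 and 517 CPM in control. Astrocyte markers (5 of 8 measured, all higher in the mean) had a median log2 fold change of 1.10. Progenitor markers (4 of 7, all higher in the mean) had one of 0.91. Among these the groups overlapped in Slc1a2 (log2 fold change 0.04, SE 0.57), Aldoc (0.29, SE 0.40), Mki67 (0.75, SE 0.67) and Top2a (0.39, SE 0.65). Both measured of 5 inhibitory neuron markers were lower, with a median of -0.995. None of the 6 excitatory neuron markers and none of the 6 microglia markers had a usable event. No marker passed edgeR's test after Benjamini-Hochberg adjustment. In bulk RNA, fewer cells of a type and less RNA per cell cannot be told apart, and the part of these levels in the splicing values below was not tested. The KCl libraries also differed from each other, since KCl replicate 1 had the lower neuronal sum.

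Microexons had lower inclusion read shares in KCl than in control. The median over the 203 was 15.8% and 21.1% in the KCl libraries and 50.0% and 48.1% in the control libraries. The lower quartile was 0.749% and 6.10% in KCl and 15.6% and 15.2% in control. With all microexon reads pooled, the share was 21.9% and 24.0% in KCl and 32.7% and 29.7% in control. The exon of Nnat, whose share was higher in KCl, weighs heavily in these pooled values. It held 1103 of 3426 and 1592 of 4862 inclusion reads in KCl, and 959 of 4670 and 1206 of 6476 in control. Mean shares above 50% were measured for 57 microexons in KCl and 97 in control, and mean shares under 10% for 72 in KCl and 34 in control. The mean was lower in KCl for 158 microexons and higher for 44. Over all 11814 events the library medians were 85.3% and 85.0% in KCl and 85.0% and 84.6% in control.

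**Figure D1:**
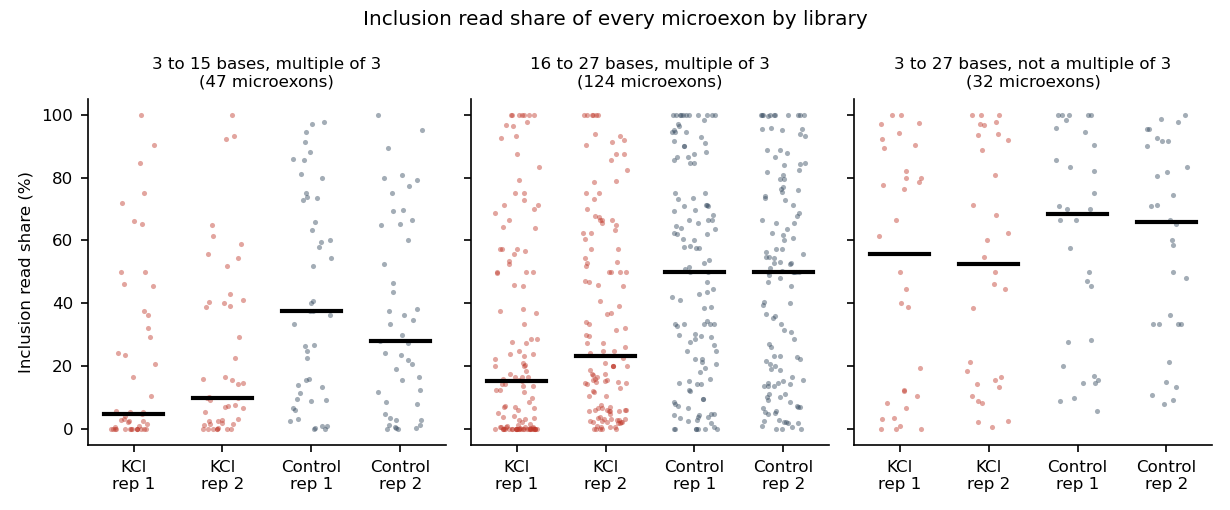
Inclusion read share in percent (vertical axis) of every microexon in each library, with KCl in red and control in dark blue, for 3 classes of length and frame. Each dot is 1 microexon and each black bar a median; the bars of the 47 shortest in-frame microexons stand at 5.00% and 10.0% in KCl and at 37.5% and 27.9% in control.

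Counted one by one, 118 microexons (58.1%) had both KCl shares under both control shares, where 20.4% of all events did. The opposite order was measured for 18 (8.87%), against 21.8% of all events, and 67 overlapped. The 118 lay in 99 genes. Testing required each form to average 1 read or more, which 188 microexons met. Of these, 66 were lower and 3 higher at an unadjusted p under 0.05 in edgeR's quasi-likelihood test on the counts of both forms. Of all 10088 events tested, 4.97% were lower and 4.24% higher at that threshold. The median log2 odds ratio of inclusion was -1.63 over the 188 microexons and 0.04 over all events tested. After Benjamini-Hochberg adjustment over all events edgeR called 0 microexons, as it called 0% of all events, and the smallest adjusted p was 0.0977. DESeq2 called 0 microexons, with 54 lower and 2 higher at an unadjusted p under 0.05, where 3.35% and 2.53% of all events were. With limma 0 were called, and 72 were lower and 3 higher, where 5.54% and 5.13% of all events were. Without KCl replicate 1 the number lower was 38, where 2.47% of all events were, and without control replicate 1 it was 34, where 2.61% of all events were. With cassette exons alone in the fit, edgeR called 17 microexons, 16 lower and 1 higher, or 9.04% of those tested, against 1.47% of cassette exons. These 17 lay in Nckap1, Eif4g1, Ank2, Dctn1, Enah, Clasp2, Ptprf, Pls3, Tenm3, Inpp4a, Mfsd6, Camta2, Dtnb, Mef2c, Pus7 and Fry, all lower in KCl, and in Mllt4. With a term for the replicate number (a replicate block), edgeR called 19 microexons, 18 lower and 1 higher. They were 10.1% of those tested, against 1.66% of all events. The labels do not say what a replicate number shares, so this block is an alternative only.

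Several microexons share reads or a gene. An overlapping partner was listed for 8 of them, in Inpp4a, Itsn1, Synj1 and Macf1, and 19 genes held 47 microexons between them. With 1 microexon per gene, 97 of 175 were lower and 17 higher with groups that did not overlap. The coordinates of 6 were also listed under another event type, and without them the counts were 113 and 18 of 197.

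Longer cassette exons as a whole did not show such a tilt. Among those over 27 bases, both KCl shares were lower in 21.1% and higher in 24.1% of 7428. Among exons with a length that is a multiple of 3, and so keeps the frame, the share that was lower declined with length up to 51 bases. It was 68.1% of 47 exons of 3 to 15 bases, 61.3% of 124 of 16 to 27 bases, 37.8% of 148 of 28 to 39 bases and 24.4% of 160 of 40 to 51 bases. It then stayed at 23.8% for 52 to 99 bases, 22.3% from 100 to under 200 bases and 24.2% from 200 bases on. Among lengths that are not a multiple of 3 there was no such decline over the shortest classes: 33.3% of 6 exons of 3 to 15 bases were lower, 30.8% of 26 of 16 to 27 bases and 37.5% of 64 of 28 to 39 bases, against 16.9% of 130 of 40 to 51 bases. The microexons of 27 bases, just inside the length limit, had 19 lower and 3 higher of 36. The length classes are a description, and the difference between them was not tested.

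The counts were also taken over exons whose mean read share over the 4 libraries lay between 10% and 90%, a range that does not mean the same splicing level at every length. In it, 61.0% of 146 microexons were lower and 7.53% higher. For cassette exons over 27 bases the numbers were 26.6% lower and 25.6% higher of 1320 with a length that is a multiple of 3, and 19.1% lower and 25.1% higher of 1105 with other lengths. The median difference, KCl minus control, was -22.0 percentage points for the microexons and 0.47 and 1.21 points for those longer exons.

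**Figure D2:**
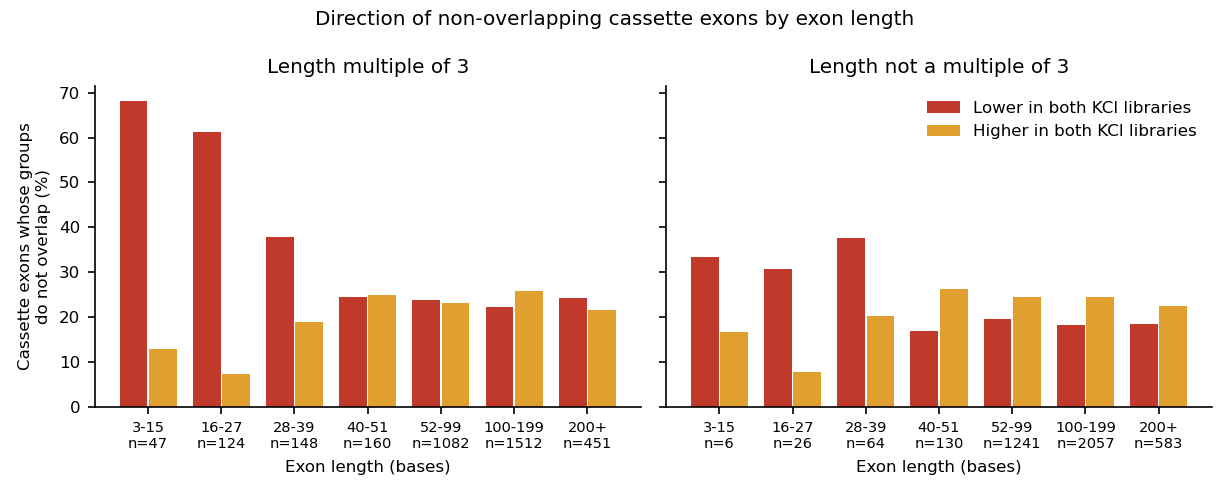
Percent of cassette exons (vertical axis) whose KCl shares both lay under (red) or both lay above (yellow) the control shares, by exon length in bases (horizontal axis), for lengths that are a multiple of 3 and lengths that are not. In the left panel the red bars stand at 68.1% and 61.3% for the microexon classes and between 22.3% and 24.4% from 40 bases on.

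The microexons were also counted by reading frame and by length. A length that is a multiple of 3 was found in 171 (84.2%), against 45.1% of cassette exons over 27 bases and 61.4% of those of 28 to 51 bases. In these 171 the median share was 18.1% in KCl and 44.4% in control. Without overlap, 108 (63.2%) were lower and 15 (8.77%) higher, where 20.4% and 21.8% of all events were. In the other 32 the median share was 56.9% in KCl and 66.7% in control, and 10 were lower and 3 higher. The lengths ran from 8 to 27 bases. Those of 15 bases had 14 lower and 0 higher of 16, with medians of 1.56% and 15.0% in the KCl libraries and 69.7% and 35.5% in the control libraries. Those of 18 bases had 14 lower and 0 higher of 24. Those of 9 bases went both ways, with 5 lower and 4 higher of 12. RefSeq placed 202 of the 203 inside the span of the same gene on GRCm38.p6, the build mm10, and the remaining gene, Fam92a, had no match. Whether an exon is coding was not established here.

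The lowest unadjusted p of all microexons belonged to Nckap1, a subunit of the WAVE complex that drives branched actin assembly. Its 18-base exon (chromosome 2, 80571213 to 80571230, mm10) was included in 1 of 391 and 4 of 180 reads in KCl, against 37 of 173 and 19 of 139 reads in control. These are shares of 0.256% (interval 0.0452 to 1.43) and 2.22% (0.867 to 5.57) in KCl and 21.4% (15.9 to 28.1) and 13.7% (8.93 to 20.4) in control. The intervals of the KCl libraries lay wholly under those of the control libraries. The log2 odds ratio was -4.41 (SE 0.89, adjusted p 0.0977, edgeR).

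Eif4g1 codes for the scaffold of the complex that recruits ribosomes to capped mRNA, and its microexon is a known neuronal one. The 21-base exon (chromosome 16, 20674786 to 20674806) was included in 8 of 224 and 45 of 257 reads in KCl, against 83 of 163 and 136 of 270 in control. The shares were 3.57% (interval 1.82 to 6.88) and 17.5% (13.3 to 22.6) in KCl and 50.9% (43.3 to 58.5) and 50.4% (44.4 to 56.3) in control. The control libraries were nearly equal while the KCl libraries lay apart, and the groups did not overlap. The log2 odds ratio was -3.31 (SE 0.75, adjusted p 0.114, edgeR).

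**Figure D3:**
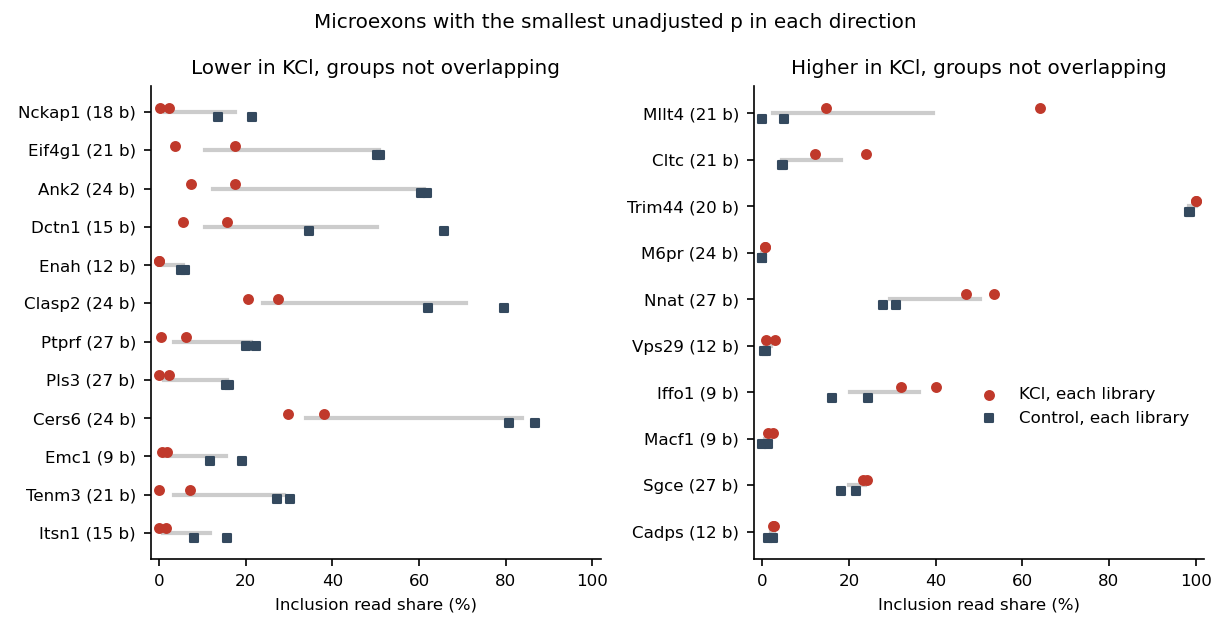
Inclusion read share in percent (horizontal axis) of the microexons with the smallest unadjusted p, with at least 20 reads in every library and groups that do not overlap, 12 lower and 10 higher in KCl. The 10 higher are all that qualified and were tested, with an unadjusted p of up to 0.646 (edgeR). Red circles are the 2 KCl libraries, dark squares the 2 control libraries, and the grey bar joins the group means; Eif4g1 stands at 3.57% and 17.5% in KCl and at 50.9% and 50.4% in control.

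Genes of the cytoskeleton and its motors held 27 microexons, of which 16 (59.3%) were lower and 4 (14.8%) higher without overlap. Of all 203 microexons 58.1% were lower and 8.87% higher, and of all events 20.4% and 21.8%. At an unadjusted p under 0.05 (edgeR), 11 of the 27 were lower and 0 higher, where 4.97% and 4.24% of all events tested were. The median share of the 27 was 12.4% in KCl and 48.8% in control. The role lists were drawn up with earlier results of these data known, and differences between them were not tested. Dctn1 codes for p150Glued, the dynactin subunit that binds microtubules and dynein. Its 15-base exon (chromosome 6, 83197319 to 83197333) was included in 12 of 216 and 49 of 312 reads in KCl, against 77 of 117 and 71 of 205 in control. The shares of 5.56% and 15.7% in KCl lay under those of 65.8% and 34.6% in control, which themselves lay apart. The log2 odds ratio was -3.12 (SE 0.77, adjusted p 0.139, edgeR). Ank2 codes for ankyrin-B, which links membrane proteins to spectrin. Its 24-base exon (chromosome 3, 127052226 to 127052249) had 5 of 68 and 19 of 109 reads in KCl, against 26 of 43 and 60 of 97 in control, a mean share of 12.4% ± 7.13 in KCl and 61.2% ± 0.98 in control (SD, n = 2 each). Clasp2 codes for a protein that stabilizes microtubule plus ends. Its 24-base exon (chromosome 9, 113878750 to 113878773) had 19 of 93 and 23 of 84 reads in KCl, against 54 of 87 and 70 of 88 in control, a mean of 23.9% ± 4.91 in KCl and 70.8% ± 12.4 in control. A second Clasp2 microexon, of 18 bases, overlapped between the groups, with 20% and 21.1% in KCl and 0 of 11 reads and 12 of 20 reads in control.

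Enah codes for Mena, a protein that elongates actin filaments. Its 12-base exon (chromosome 1, 181931174 to 181931185) had 0 of 125 and 0 of 231 inclusion reads in KCl, which allow shares of up to 2.40% and 1.30% (3 reads each). In control it had 4 of 67 and 6 of 120, or 5.97% (interval 2.35 to 14.4) and 5.00% (2.31 to 10.5). Both KCl limits lay under both control shares, but the control intervals reached below the limit of 2.40%. Pls3, which codes for the actin bundler plastin 3, had a 27-base exon (chromosome X, 75799717 to 75799743) with 0 of 134 and 3 of 133 reads in KCl and 9 of 56 and 12 of 78 in control. Its shares of 0% (at most 2.24%) and 2.26% in KCl stood against 16.1% and 15.4% in control. Kif1a, the kinesin that carries synaptic vesicle precursors, had one of the best covered microexons. Its 27-base exon (chromosome 1, 93065552 to 93065578) had 9 of 283 and 43 of 713 reads in KCl, against 89 of 459 and 200 of 1066 in control, a mean of 4.61% ± 2.02 in KCl and 19.1% ± 0.44 in control with a log2 odds ratio of -2.27 (SE 0.68, adjusted p 0.225, edgeR). The overlapping Macf1 exons of 12 and 15 bases were also well covered, but rested on few inclusion reads: 0 of 495 and 1 of 915 in KCl and 3 of 338 and 3 of 737 in control for each.

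Microexons not covered by the rule for named genes are given below as examples of their list, and were chosen after their values were seen. In the same list, the 9-base exon of Myo5a, the myosin that moves vesicles and organelles on actin, had shares of 5.00% and 16.1% in KCl against 59.4% and 38.3% in control. The 15-base exon of Sptan1, the alpha-II spectrin gene, had 65.2% and 40.4% in KCl against 91.3% and 79.1% in control. All 3 Clasp1 microexons were lower without overlap, the one of 27 bases at 11.9% and 26.0% in KCl against 66.7% and 51.2% in control. Not every member of the list was lower: the 27-base exon of the kinesin gene Kifc3 had 45.5% and 51.9% in KCl against 29.7% and 33.3% in control.

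Genes of adhesion and axon guidance held 32 microexons in 19 genes, and 27 of them (84.4%) were lower and 0 higher without overlap. Of all microexons 58.1% were lower and 8.87% higher, and of all events 20.4% and 21.8%. The list was drawn up with earlier results of these data known. It left out Slit2 and Mllt4, which each held a microexon higher without overlap, so the 0 depends on the list. At an unadjusted p under 0.05 (edgeR), 13 of the 32 were lower and 0 higher, where 4.97% and 4.24% of all events tested were. The median share of the 32 was 15.2% in KCl and 43.7% in control. Ptprf codes for LAR, a receptor tyrosine phosphatase that organizes synapses. Its 27-base exon (chromosome 4, 118227819 to 118227845) had 2 of 381 and 13 of 211 inclusion reads in KCl, against 23 of 103 and 30 of 150 in control. The shares were 0.525% and 6.16% in KCl and 22.3% and 20% in control, with a log2 odds ratio of -3.33 (SE 0.86, adjusted p 0.146, edgeR). Its relative Ptprd, in which microexons of the extracellular part tune binding to synaptic partners, had 4 microexons, 3 lower without overlap. One of 12 bases had 0 of 19 and 5 of 22 reads in KCl against 6 of 11 and 26 of 40 in control. The 12-base exon of Ptprs, the third gene of that family, had high shares in all libraries, at 90.2% and 93.2% in KCl and 94.6% and 95.3% in control, and its log2 odds ratio of -0.70 was smaller than its SE of 0.89.

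Nrxn2 codes for a neurexin, a presynaptic adhesion molecule with several alternative segments, and both of its microexons were lower without overlap. The 24-base exon (chromosome 19, 6463824 to 6463847) had 7 of 101 and 19 of 180 reads in KCl, against 67 of 205 and 69 of 296 in control, or 6.93% and 10.6% in KCl and 32.7% and 23.3% in control. Its log2 odds ratio was -1.97 (SE 0.67, adjusted p 0.328, edgeR). The 27-base exon had 12 of 57 and 7 of 53 reads in KCl, against 36 of 68 and 38 of 79 in control.

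Teneurins, large adhesion proteins that bind latrophilins across the synapse, held 5 microexons, 4 of them lower without overlap. The 21-base exon of Tenm3 (chromosome 8, 48287133 to 48287153) had 0 of 78 and 10 of 142 reads in KCl, against 13 of 43 and 31 of 114 in control. The 0 of 78 allows a share of up to 3.85%, and the mean was 3.52% ± 4.98 in KCl and 28.7% ± 2.15 in control. The log2 odds ratio was -3.28 (SE 0.95, adjusted p 0.209, edgeR). The 27-base exon of the same gene had 13.6% and 20% in KCl and 44.4% and 35.4% in control. Latrophilin genes (Adgrl1 to Adgrl3) held 6, of which 5 were lower, but several from fewer than 10 reads in a library. A 15-base exon of Adgrl3 with 45.5% and 38.9% in KCl stood against 85.7% and 77.3% in control. Slit2, which codes for an axon guidance ligand but was not in the list, held 3 microexons, 2 lower and 1 higher without overlap. The higher one, of 24 bases, had 3 of 18 and 28 of 89 reads in KCl against 4 of 27 and 18 of 115 in control.

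Genes of vesicle and membrane traffic held 22 microexons, of which 15 (68.2%) were lower and 3 (13.6%) higher without overlap. Of all microexons 58.1% were lower and 8.87% higher, and of all events 20.4% and 21.8%. At an unadjusted p under 0.05 (edgeR), 11 of the 22 were lower and 1 higher, where 4.97% and 4.24% of all events tested were. The median share of the 22 was 15.1% in KCl and 42.3% in control. Itsn1 codes for intersectin, an endocytic scaffold. Its 15-base exon (chromosome 16, 91842628 to 91842642) had 0 of 101 and 3 of 181 reads in KCl, against 10 of 64 and 14 of 176 in control, and the 8-base exon listed within it (91842635 to 91842642) rested on nearly the same reads. The groups did not overlap, at 0% (at most 2.97%) and 1.66% in KCl and 15.6% and 7.95% in control for the longer form. Snap91, which codes for the clathrin adaptor AP180, had a 15-base exon at 36.4% and 43.1% in KCl and 86.0% and 69.8% in control. All 3 Synj1 microexons were lower without overlap, in the gene of the phosphatase that uncoats vesicles, and the one with most reads had 15.2% and 34.0% in KCl and 71.1% and 65.7% in control. The 12-base exon of Dnm3, a dynamin that cuts vesicles from the membrane, had 5.80% and 10.0% in KCl and 40.0% and 37.5% in control.

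The 3 members higher in KCl in that list were in Cltc, Vps29 and Cadps. Cltc codes for the clathrin heavy chain, and its 21-base exon (chromosome 11, 86701061 to 86701081) had 31 of 129 and 58 of 475 reads in KCl, against 11 of 248 and 32 of 675 in control. Its shares of 24.0% and 12.2% in KCl lay above 4.44% and 4.74% in control, with a log2 odds ratio of 2.08 (SE 0.69, adjusted p 0.306, edgeR). Vps29, a retromer subunit, had 0.93% and 2.87% in KCl and 0.448% and 0.749% in control, and Cadps, which primes dense-core vesicles, 2.63% and 2.56% in KCl and 2.55% and 1.32% in control. Both rested on at most 6 inclusion reads in any library.

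**Figure D4:**
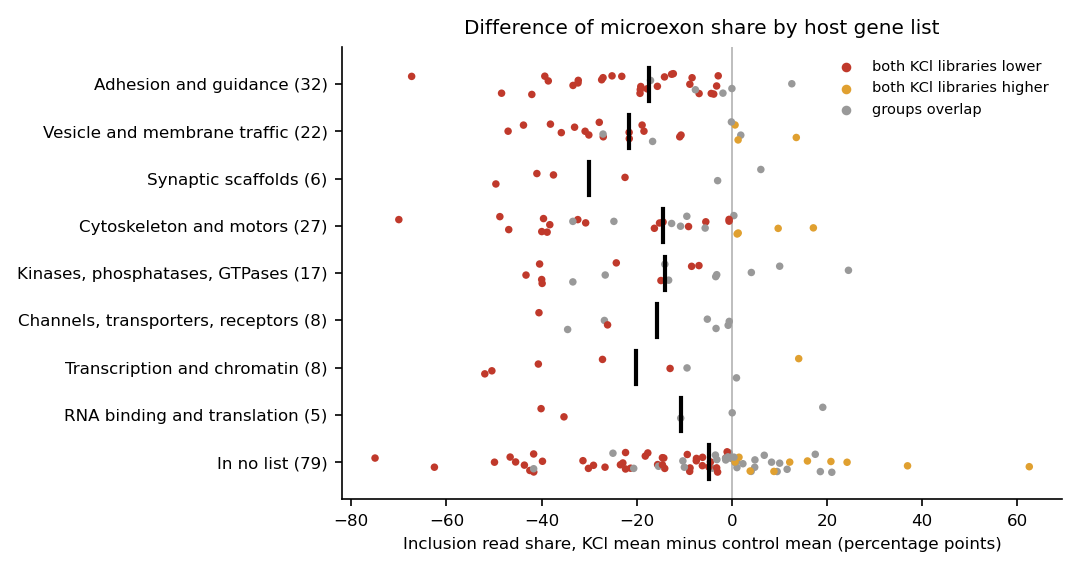
Difference of the mean inclusion read share, KCl minus control, in percentage points (horizontal axis) for each microexon, by the list of its host gene, with the number of microexons in brackets. Dots are red where both KCl libraries were lower, yellow where both were higher and grey where the groups overlapped, and black bars are medians; the adhesion and guidance row holds 27 red and 0 yellow dots. The lists were drawn up with earlier results of these data known.

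Synaptic scaffolds held 6 microexons, 4 lower and 0 higher without overlap. Of all microexons 58.1% were lower and 8.87% higher without overlap, and of all events 20.4% and 21.8%. The 12-base exon of Erc1, a component of the presynaptic active zone, had 2.86% and 9.28% in KCl and 33.3% and 23.7% in control, and the 21-base exon of the postsynaptic scaffold gene Shank2 had 16.7% and 50.0% in KCl and 69.2% and 79.4% in control. In Shank3 and Nbea the groups overlapped. Kinases, phosphatases and GTPase regulators held 17, of which 8 (47.1%) were lower and 0 higher. The median share of the 17 was 31.9% in KCl and 57.4% in control. The overlapping 18-base and 15-base exons of Inpp4a, a phosphoinositide phosphatase, share most reads, and the longer one had 0 of 17 and 1 of 36 in KCl and 11 of 19 and 11 of 35 in control. Channels, transporters and receptors held 8, of which 2 (25%) were lower without overlap, near the share over all events, and 6 overlapped. In Gabbr1, which codes for a subunit of the GABA-B receptor, a 21-base exon had 57.1% and 66.7% in KCl and 88.2% and 87.8% in control.

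Transcription and chromatin genes held 8 microexons, 5 lower and 1 higher without overlap. Of all microexons 58.1% were lower and 8.87% higher without overlap, and of all events 20.4% and 21.8%. MEF2 proteins are transcription factors that respond to neuronal activity, and the microexons of all 3 MEF2 genes listed were lower. The 24-base exon of Mef2a had 2 of 33 and 14 of 62 reads in KCl against 21 of 35 and 35 of 70 in control. The 24-base exon of Mef2c had 1 of 7 and 22 of 28 in KCl against 56 of 57 and 85 of 89 in control, and the 21-base exon of Mef2d 2 of 20 and 7 of 47 in KCl against 2 of 8 and 19 of 35 in control. The Mef2c value of KCl replicate 1 thus rests on 7 reads. Camta2, a calmodulin-binding transcription factor gene, had 0 of 22 and 4 of 34 in KCl and 8 of 16 and 21 of 32 in control. The 12-base exon of Kdm1a (chromosome 4, 136563438 to 136563449), which makes the neuronal form of the histone demethylase LSD1, overlapped between the groups, with 5 of 225 and 14 of 136 reads in KCl and 12 of 128 and 22 of 100 in control. Genes of RNA binding and translation held 5, Eif4g1 among them, with 2 lower and 0 higher. The 18-base exon of Ewsr1 (chromosome 11, 5091460 to 5091477), an RNA-binding protein gene outside these lists, had 1.26% and 3.33% in KCl and 4.03% and 6.96% in control.

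Genes already known for neuronal microexons held 50 of the 203. Their list was drawn up for this description with earlier results of these data known. Of these 50, 38 (76%) were lower and 2 (4%) higher without overlap, where 20.4% and 21.8% of all events were. At an unadjusted p under 0.05 (edgeR), 25 of the 50 were lower and 0 higher, where 4.97% and 4.24% of all events tested were. The median share of the 50 was 18.04% in KCl and 52.8% in control. The 153 in other genes had 80 lower and 16 higher, with a median of 23.7% in KCl and 44.9% in control. The contrast between them was not tested. In genes of no role list, with 79 microexons, 39 (49.4%) were lower and 10 (12.7%) higher without overlap. They include Cers6, a ceramide synthase gene, whose 24-base exon (chromosome 2, 69105743 to 69105766) had 8 of 21 and 8 of 27 reads in KCl and 26 of 30 and 38 of 47 in control. They also include Emc1, which codes for a subunit of the complex that inserts proteins into the endoplasmic reticulum membrane. Its 9-base exon (chromosome 4, 139364331 to 139364339) had 1 of 134 and 1 of 59 in KCl and 5 of 43 and 8 of 42 in control.

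Microexons with a higher share in KCl were few, and 3 of them had an unadjusted p under 0.05: those of Cltc, Mllt4 and Trim44. Mllt4 codes for afadin, which ties nectins to actin at cell junctions. Its 21-base exon (chromosome 17, 13848355 to 13848375) had 16 of 25 and 5 of 34 reads in KCl, against 2 of 41 and 0 of 61 in control, and the KCl libraries lay far apart at 64.0% and 14.7% (log2 odds ratio 4.66, SE 1.34, adjusted p 0.209, edgeR). The 20-base exon of Trim44 (chromosome 2, 102346964 to 102346983) had no skipping read in KCl, with 83 and 164 inclusion reads, which allow skipping shares of up to 3.61% and 1.83%. In control its inclusion share was 98.4% and 98.7%, so that a difference was not detectable at this depth. The same holds for M6pr, which codes for a mannose 6-phosphate receptor: 2 of 317 and 3 of 422 reads in KCl stood against 0 of 134 and 0 of 332 in control, which allow 2.24% and 0.904%.

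Nnat, an imprinted gene for a small membrane protein, held by far the most reads. Its 27-base exon (chromosome 2, 157561213 to 157561239) had 1103 of 2065 and 1592 of 3392 inclusion reads in KCl, against 959 of 3450 and 1206 of 3899 in control. The shares were 53.4% (interval 51.3 to 55.6) and 46.9% (45.3 to 48.6) in KCl and 27.8% (26.3 to 29.3) and 30.9% (29.5 to 32.4) in control. The counting intervals of the groups were far apart, yet the log2 odds ratio of 1.28 had an SE of 0.64 and an adjusted p of 0.559 (edgeR). That fit estimates the spread between libraries with the help of all events tested. This SE is therefore not the spread of the Nnat shares alone. Smaller differences of the same sign, with groups that did not overlap, were measured in Iffo1 (32.1% and 40.0% in KCl, 16% and 24.3% in control), in Sgce (23.3% and 24.2% in KCl, 18.1% and 21.7% in control) and in a 9-base exon of Macf1 (2.53% and 1.40% in KCl, 0%, which allows up to 1.55%, and 1.28% in control).

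The authors' deposited table for replicate 1, which sets 1 KCl library against 1 control library, gave an FDR under 0.05 to 36 microexons, 32 lower and 4 higher in KCl, and to 2.89% of all events. The authors' deposited table for replicate 2 gave it to 11, 9 lower and 2 higher, and to 1.29% of all events. In all, 9 microexons passed at both replicate numbers in the authors' deposited tables, where 1.03% of all events did. They were Mfsd6, Kif1a, Camta2, Eif4g1, Ank2, Tenm3 and Clasp2, all lower in KCl, and Cltc and Nnat, both higher.

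The level of a host gene was taken as the summed reads of both forms of its event with most reads, which can be the microexon event itself. Of the 175 host genes, 106 were lower and 69 higher in KCl, with a median log2 fold change of -0.18, against 0.04 over all 6117 genes. At an unadjusted p under 0.05, 19 were lower and 9 higher, where 7.31% and 4.94% of all genes were, and edgeR called 0 after Benjamini-Hochberg adjustment (0% of all genes), while DESeq2 called 1 (0.965% of all genes). These counts depend on single libraries: without KCl replicate 1 there were 3 lower and 3 higher, where 3.4% and 2.19% of all genes were. Without KCl replicate 2 there were 43 lower, where 10.2% of all genes were, and 14 passed the adjusted threshold, or 8% of host genes against 4.86% of all genes. Without control replicate 1 there were 4 higher and without control replicate 2 there were 5, where 4.01% and 4.43% of all genes were. With the replicate block edgeR called 52 host genes, or 29.7% against 20.2% of all genes. That block is an alternative only, as the labels do not say what a replicate number shares. Microexon shares were also counted by the direction of the host gene level. Among 128 microexons in genes with a lower level in KCl, 83 had a lower and 9 a higher share without overlap. Of all events 20.4% were lower and 21.8% higher. The median difference of the 128 was -16.5 percentage points. Among 75 in genes with a higher level, 35 had a lower and 9 a higher share, and the median difference was -8.47 points. Taken one by one, log2 odds ratio and host gene log2 fold change had a Pearson correlation of 0.125 over 188 microexons. Over the 93 of these with at least 20 reads in every library it was 0.065. Of the 99 genes with a microexon lower without overlap, 67 had a lower and 32 a higher level in KCl. Examples of the latter are Dctn1, Ptprf, Pls3 and Emc1. Their gene level log2 fold changes were 0.76 (SE 0.41), 0.93 (SE 0.49), 1.04 (SE 0.42) and 1.25 (SE 0.59). The part of host gene level in the microexon shares was not tested.

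Of 31 genes of splicing factors, 25 had a measured event, and 13 were lower and 12 higher in KCl. At an unadjusted p under 0.05 (edgeR), 2 were lower and 0 higher, where 7.31% and 4.94% of all genes were. None passed the adjusted threshold. Srrm4 had no usable event. Srrm3 had 10.3 and 7.92 CPM in KCl against 28.6 and 16.1 CPM in control, a log2 fold change of -1.29 (SE 0.56). Rbfox1, a splicing factor of neurons and muscle, had 3.42 and 15.8 CPM in KCl against 45.3 and 29.0 CPM in control (log2 fold change -1.91, SE 0.73). Khdrbs3, which codes for the neurexin splicing regulator T-STAR, had 266 and 301 CPM in KCl against 694 and 517 CPM in control (-1.09, SE 0.39). Ptbp1 had 136 and 201 CPM in KCl against 68.2 and 112 CPM in control (0.90, SE 0.46). Qk, known in glia and muscle, had 1766 and 2284 CPM in KCl against 575 and 1576 CPM in control (0.91, SE 0.54). In all these 5 genes the groups did not overlap, but in others of the 25 they did. Examples are Srsf11 (log2 fold change 0.04, SE 0.52), Ptbp2 (-0.27, SE 0.63), Ptbp3 (0.43, SE 0.73) and Nova1 (0.34, SE 0.54). Over the 25, both KCl levels were lower in 8 and higher in 3, where 21.2% of all genes were lower and 22.1% higher. Besides the 5 genes above, these were Rnps1, Rbfox2, Rbfox3, Celf4 and Elavl3, lower in KCl, and Srsf6, higher. The unadjusted p (edgeR) was under 0.05 for Rbfox1 and Khdrbs3 alone, with 0.053 for Srrm3, 0.093 for Ptbp1 and 0.134 for Qk. These values stand beside the neuronal and glial marker levels given above, and their part in the microexon shares was not tested.

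**Figure D5:**
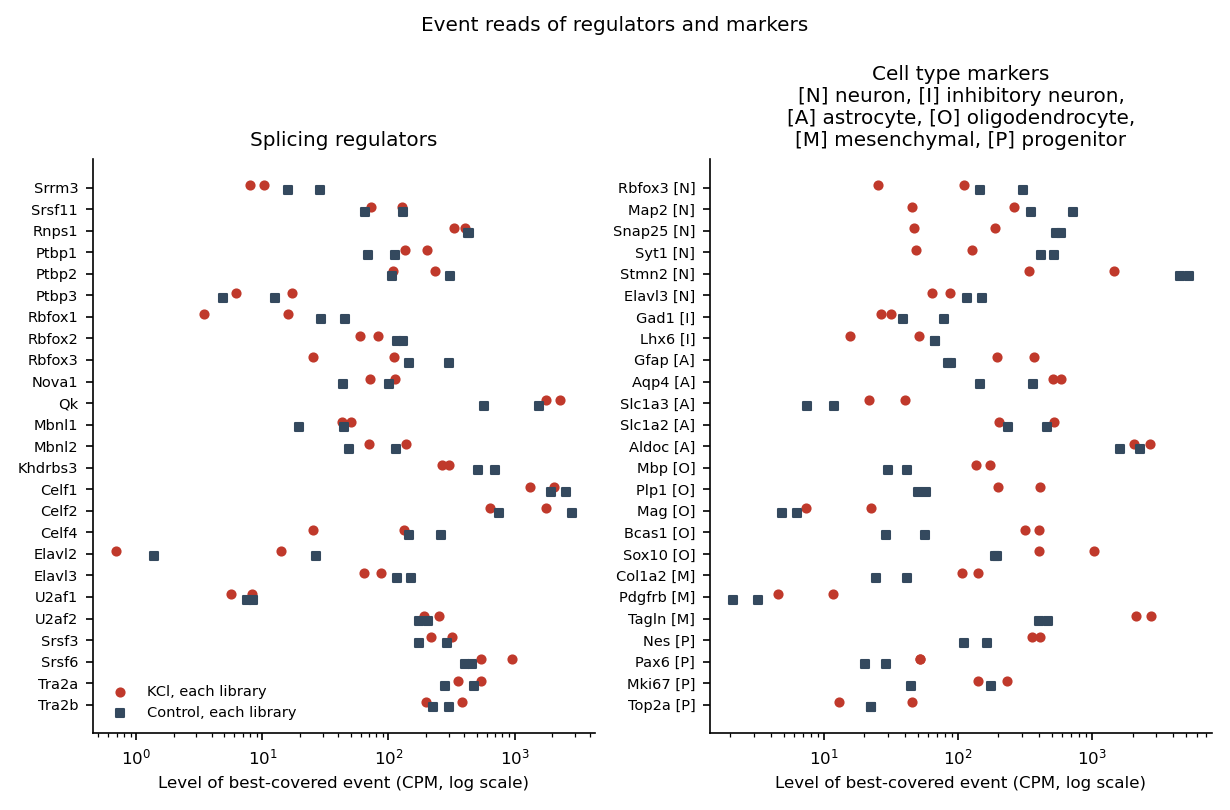
Level of the best-covered event in CPM on a log scale (horizontal axis) of splicing regulators (left) and cell type markers (right), with red circles for the 2 KCl libraries and dark squares for the 2 control libraries. Letters in brackets name the cell type; Rbfox1 stands at 3.42 and 15.8 CPM in KCl and at 45.3 and 29.0 CPM in control.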

How the data were processed

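The authors deposited whole-number counts of reads of the inclusion and skipping form of each splicing event, and p-values and FDRs for KCl against control within each replicate number, per the file headers. TopHat2, BWA 0.7.12, MACS2, CASAVA 1.7 and mm10 appear, with no role, in the submitters' processing notes. How events were counted, on which annotation and with which read filters is not given in the sources used here. Aligners differ in how they place reads across exons this short, and the effect on the counts was not tested. The H3K9me3 libraries were not used here.

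Coordinates count from 1. Splicing was tested on the deposited counts of the 10088 events in which each form averaged 1 read or more, with edgeR 4.0.16 (quasi-likelihood, R 4.3.3) and a model of library, form and form-by-KCl. Host gene levels were tested likewise over 6117 genes with TMM scaling and a term for KCl only. Benjamini-Hochberg adjustment ran over all events or genes, with a threshold of 0.05. The alternatives were DESeq2 1.42.0, limma 3.58.1 (log2 odds, pseudocount of 0.5), a replicate block, no filter or a minimum mean of 5 reads, cassette exons alone, events of equal coordinates summed, and leaving out each library. Using 1 microexon per gene, and leaving out microexons listed under another event type, were added after seeing the data. The fits were also run on simulated counts, and the outcome is not reported here. Scripts ran under Python 3.11.15 with scipy 1.17.1, pandas 2.3.3, matplotlib 3.10.9 and numpy 2.4.6.

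The microexons and the lists of genes were chosen with earlier results of these data known. Named are the microexons with the smallest unadjusted p (12 per direction, or as many as qualify) among those with groups that do not overlap and at least 20 reads in every library, those of known microexon genes with most reads (12), the 5 with most reads in all, and regulators and markers. Other names are examples chosen after their values were seen. Part of what this rule names is not reported here. The plan foresaw sequence features of the exons, which were not analysed here.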

Additional observations from a re-analysis of the deposited data

How the results depend on the processing

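The direction of the microexon values held in every alternative run, and the number called did not. In edgeR a replicate block gave 19 called microexons (18 lower, 1 higher in KCl, against 1.66% of all events), and with cassette exons alone 17 were called, 15 of them in both. What the replicate number stands for is not in the labels, and deviations of same-numbered libraries from their group means correlated at 0.147 over microexons, 0.271 over all events and 0.623 over gene levels. Leaving out 1 library gave between 34 and 62 microexons lower and between 0 and 3 higher at an unadjusted p under 0.05, and 0 called. Host genes called came to 52 of 175 with the block, or 29.7% against 20.2% of all genes (52 lower and 27 higher at an unadjusted p under 0.05, where 16.8% and 15.6% of all genes were), to 1 with DESeq2, and to between 0 and 14 without 1 library (between 3 and 43 lower, between 3 and 11 higher). Over the 96 microexons with at least 20 reads in every library the median share was 10.6% in KCl and 28.5% in control. Without 1 library the medians over all microexons were 15.8% to 22.2% in KCl and 48.1% to 50.0% in control. Of 32 named microexons, 12 passed the threshold with the block and 10 with cassette exons alone; the other alternatives changed no call among them, though only 23 could be fitted at a minimum of 5 reads. With 1 library left out, a group of 1 is assumed to vary like the other. The numbers passing over all events and over all genes also changed with the library left out, so these counts are a description only. In these fits the median log2 odds ratio over the microexons lay between -2.15 and -1.21. Over all events tested it lay between 0.02 and 0.07. The cause of these differences was not tested, and thin coverage limits what single microexons can show.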

Other observations

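Outside the role lists, several thinly covered microexons had large differences, and those given here were chosen after their values were seen. Fry codes for a large protein that binds microtubules, and its 9-base exon (chromosome 5, 150461389 to 150461397) was included in 1 of 23 and 3 of 30 reads in KCl, against 8 of 11 and 16 of 24 in control. Dtnb codes for beta-dystrobrevin, a partner of dystrophin, and its 21-base exon had 0 of 44 and 6 of 36 reads in KCl, against 23 of 36 and 12 of 30 in control. Mfsd6, a gene of the major facilitator family of transporters, had a 25-base exon with 0 of 19 and 8 of 56 reads in KCl and 23 of 40 and 41 of 82 in control. Its length is not a multiple of 3. Zfyve27 codes for protrudin, which promotes neurite outgrowth, and its 21-base exon had 9 of 51 and 15 of 33 reads in KCl, against 23 of 40 and 32 of 36 in control. Pus7, a pseudouridine synthase gene, had an 18-base exon with 0 of 43 and 0 of 61 reads in KCl, which allow up to 6.98% and 4.92%, and 3 of 10 and 5 of 34 in control. In each of these 5 genes both KCl shares lay under both control shares. The adjusted p values lay between 0.124 for Fry and 0.363 for Zfyve27 (edgeR).

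Some microexons in traffic and kinase genes that the report does not name had similar differences. Those given here were chosen after their values were seen. The groups overlapped for 9 of the 17 microexons in the kinase list and for 4 of the 22 in the traffic list. Ap1b1, a clathrin adaptor subunit gene, had a 21-base exon at 12.5% and 7.69% in KCl and 51.5% and 40.4% in control. Mink1, a kinase gene, had a 24-base exon at 13.7% and 6.82% in KCl and 64.7% and 36.7% in control. The 27-base exon of Trappc9, which codes for a subunit of a vesicle tethering complex, had 1.61% and 2.86% in KCl and 26.9% and 20.7% in control. In the kinase gene Tnik the KCl libraries lay apart: its 24-base exon had 0 of 24 and 29 of 74 reads in KCl and 7 of 12 and 45 of 74 in control.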
